A study of Mus musculus with 12 samples.

Results

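Genes of a single signalling route were read in the chromatin maps of mouse mesenchymal stem cells (MSCs) kept at low or at high oxygen: the cytokine receptor genes Il6st, Lifr and Osmr, the transcription factor genes Stat3, Stat5a and Stat5b, and Socs3, which encodes the brake on the route. They make up 7 of the 21938 protein-coding genes of the annotation used. For each gene, every called interval that shared a base with the gene body or with the 20000 bp on either side was taken. These windows held 23 of the 22555 distinct intervals of the whole series. The genes were chosen by a measured value of these same data, a wide interval of histone acetylation over Stat3 that was called at low oxygen and not at high oxygen. The acetylation calls at the members are therefore given as a description, with no test.

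The cells came from the hind limb bones of C57BL/6N mice and are named bone-marrow MSCs in the labels, with a donor age of 3 to 5 months. They were sorted on day 12 as CD45-/TER-119-/CD140a+/Sca-1+ cells, and were compared at 2% oxygen (hypoxia) and 21% oxygen (normoxia). Per the methods, all cells were grown at the low level up to the sort and then kept for a week at one level or the other, while the growth note in the labels lists both levels. Hence the cells at 21% oxygen had been moved from the low level, and no group was kept at the high level throughout. No gene was altered and no agent other than oxygen differed between the groups. Chromatin immunoprecipitation followed by sequencing (ChIP-seq) recovers DNA bound to histones that carry a given mark. The marks were H3K27ac, the acetylation of lysine 27 of histone H3 that marks active promoters and enhancers, and H3K4me3, the trimethylation of lysine 4 found mainly at promoters. The 12 libraries formed 6 groups of 2, namely each mark and an input at each level, and the data read here are 4 lists of intervals, 1 for each mark and oxygen level, in which the 2 libraries of a group are pooled.

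The lists hold positions and a score but no reads. Depth is unknown, no value has a replicate error, and no difference between the oxygen levels could be tested from these lists. The H3K27ac lists held 15203 intervals in hypoxia and 14832 in normoxia, and the H3K4me3 lists 14606 and 14603. Intervals of different lists were either identical or did not overlap, so that an interval ends wherever a call changes. The score ran from 50 to 160, or stood at 1000. It is not defined in the sources used here and serves to order intervals within a list. Where the scores of an interval in both lists are given side by side, no difference in signal is read from them. Of the 14 stromal marker genes, 12 had H3K27ac at the gene start (within 1000 bp) in both lists, including Pdgfra and Ly6a, which encode the antigens CD140a and Sca-1 of the sort. None of the 10 haematopoietic and 6 endothelial markers did at the gene start (Csf1r had it at another annotated start at both levels), and Ptprc, the gene of CD45, had neither mark at its start. Epor and Kdr were among those with H3K4me3 at the start at both levels. A hypoxia-only H3K27ac interval with a score of 57 lay in the body of Cd79a, a gene of the B cell receptor. Another, with a score of 55, lay in the body of the stromal marker Thy1. Both of these intervals also carried H3K4me3, and no annotated start of Cd79a had either mark. The part of other cell types in the calls at the members was not tested.

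Cytokines of the interleukin-6 family bind receptors that share the chain gp130, the product of Il6st. LIFR and OSMR are the partner chains that pair with gp130 for leukaemia inhibitory factor and oncostatin M. Kinases of the JAK family bound to these chains phosphorylate STAT proteins, which pair up, enter the nucleus and bind DNA at palindromic sites written TTCNNNGAA. SOCS3, itself a STAT3 target, binds gp130 and the kinases and shuts the signal down. In bone, this route acts on osteoblasts and on their stromal precursors.

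At the members, H3K27ac calls differed between the oxygen levels over Stat3, Stat5a and Il6st, and H3K4me3 calls were the same at both levels at all 7. Of the 23 intervals, 20 carried H3K27ac in hypoxia and 17 in normoxia, so that 3 were hypoxia-only and 0 normoxia-only. Those 3 covered 90 kb. All 3 stood among the lowest-scoring 25% of the hypoxia list. Without that part, the count of hypoxia-only intervals at the members and the 90 kb both fell to 0. The median score of all hypoxia-only intervals, 58, lay in that part too. In all of the data, 589 of 15203 H3K27ac intervals in hypoxia were absent from normoxia (3.87%), and 218 of 14832 in normoxia were absent from hypoxia (1.47%). By gene, 4 of the 7 members had a hypoxia-only interval in the window, against 4.7% of all protein-coding genes, and 3 of 7 had one in the gene body, against 2.14%. None had a normoxia-only interval, against 1.15%. Because the Stat3 interval led to the choice of these genes, and because 2 of the 3 intervals were shared by the windows of neighbouring members, nothing is read from these counts. The member windows were also longer than most, with a median of 94.4 kb against 57.4 kb for all protein-coding genes.

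Sequences just before starts of the members are given as a description. The 4 stretches of 250 bases below end at the base before a RefSeq transcription start (mouse build GRCm38.p6, equal to mm10 in coordinates), are written in the direction of the gene and lie outside annotated UTRs. Stat3 is chr11:100939541-100939790 on the minus strand, Stat5a is chr11:100860234-100860483 on the plus strand, Il6st is chr13:112463820-112464069 on the plus strand and Socs3 is chr11:117969367-117969616 on the minus strand. They are shown because Stat3 and Il6st kept both marks here at both levels, Stat5a had H3K27ac in hypoxia only, and Socs3 carries a STAT motif, which stands in capitals. The Stat5a and Socs3 stretches lie inside the gene records. A single interval held all 3 annotated Stat5a starts, so the calls cannot tell which start carried a mark. The promoter of the Stat5a start used here had 67.7% GC, and the 250 bases before the Stat5a gene start had 44.4%.
Stat3: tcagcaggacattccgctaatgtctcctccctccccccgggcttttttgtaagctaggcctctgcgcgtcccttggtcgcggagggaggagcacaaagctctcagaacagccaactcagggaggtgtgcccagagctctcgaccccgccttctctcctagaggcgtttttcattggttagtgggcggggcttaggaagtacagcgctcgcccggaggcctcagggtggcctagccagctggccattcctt
Stat5a: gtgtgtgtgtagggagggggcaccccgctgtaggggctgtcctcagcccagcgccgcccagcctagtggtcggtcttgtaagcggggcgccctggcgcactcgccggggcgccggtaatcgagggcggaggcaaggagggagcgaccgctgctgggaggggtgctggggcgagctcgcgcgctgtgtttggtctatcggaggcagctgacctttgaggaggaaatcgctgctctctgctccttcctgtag
Il6st: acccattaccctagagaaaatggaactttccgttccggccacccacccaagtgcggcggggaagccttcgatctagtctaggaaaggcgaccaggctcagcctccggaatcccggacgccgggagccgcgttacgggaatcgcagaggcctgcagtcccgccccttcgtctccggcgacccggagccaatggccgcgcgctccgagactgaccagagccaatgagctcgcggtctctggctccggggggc
Socs3: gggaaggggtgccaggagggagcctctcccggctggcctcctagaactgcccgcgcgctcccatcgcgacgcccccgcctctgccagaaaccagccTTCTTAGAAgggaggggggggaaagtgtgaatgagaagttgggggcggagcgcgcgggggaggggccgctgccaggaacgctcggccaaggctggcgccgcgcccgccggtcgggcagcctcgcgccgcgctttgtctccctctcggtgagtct
RefSeq gave a promoter of 300 bases (250 before and 50 after a start) for all 7 members, 10 in all. Only the Socs3 promoter held TTCNNNGAA, 154 bases before the start, where 8.3% of 32851 mouse promoters hold it. This depends on the start used. In the 250 bases before the annotated gene starts, the motif stood at Lifr, where neither mark was called, and not at Socs3 or the other members. The motif is a palindrome, so both strands are covered by 1 search. The letters ACGTG or GCGTG, the core of the site of hypoxia-inducible factors, was searched on both strands and stood in 4 of the 10 member promoters, those of Stat3, Lifr, Osmr and the inner Stat5b start, against 43.8% of all promoters. GC content ran from 47.3% at the inner Stat5b start to 82.7% at the outer one, with a median of 52.7% over all promoters. A match in these letters is a description and not a bound site.

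Il6st (chr13:112464070-112510086, plus strand, 46 kb) encodes gp130 and had the widest hypoxia-only H3K27ac interval in the data. This interval, chr13:112469001-112515000, was 46 kb wide and ranked 1 of 589 hypoxia-only intervals and 86 of all 15203 H3K27ac intervals in hypoxia. It began 4.93 kb after the gene start, took in exons 2 to 17 of the 17 exons of the principal transcript with the introns between them, and ran 4.91 kb past the gene end. It covered 89.3% of the gene. No other gene body shared bases with it, and the next H3K27ac interval in normoxia on that side lay 159 kb away from its end. Its score was 58, which equals the median of the hypoxia-only intervals, and 9.68% of the hypoxia list scored lower.

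The Il6st promoter interval was called alike at both levels. It was called at chr13:112462501-112469000 with H3K27ac scored 1000 at both levels and H3K4me3 scored 137 at both. Upstream of it, a 24.5 kb interval (chr13:112438001-112462500) without H3K4me3 was called at both levels, with a score of 128 in hypoxia and 1000 in normoxia. The hypoxia-only interval touched the promoter interval. Called H3K27ac was therefore unbroken over 77 kb in hypoxia and over 31 kb in normoxia, and in both lists this run of calls began at the same base. Put over the gene body, 100% of Il6st lay in H3K27ac in hypoxia and 10.7% in normoxia. Il6st has 6 annotated start positions. The first 3 lay under both marks at both levels, and the other 3, at 8.53 kb, 10.9 kb and 11 kb into the gene, had no H3K4me3 within 1000 bp at either level and H3K27ac in hypoxia only.

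**Figure D1:**
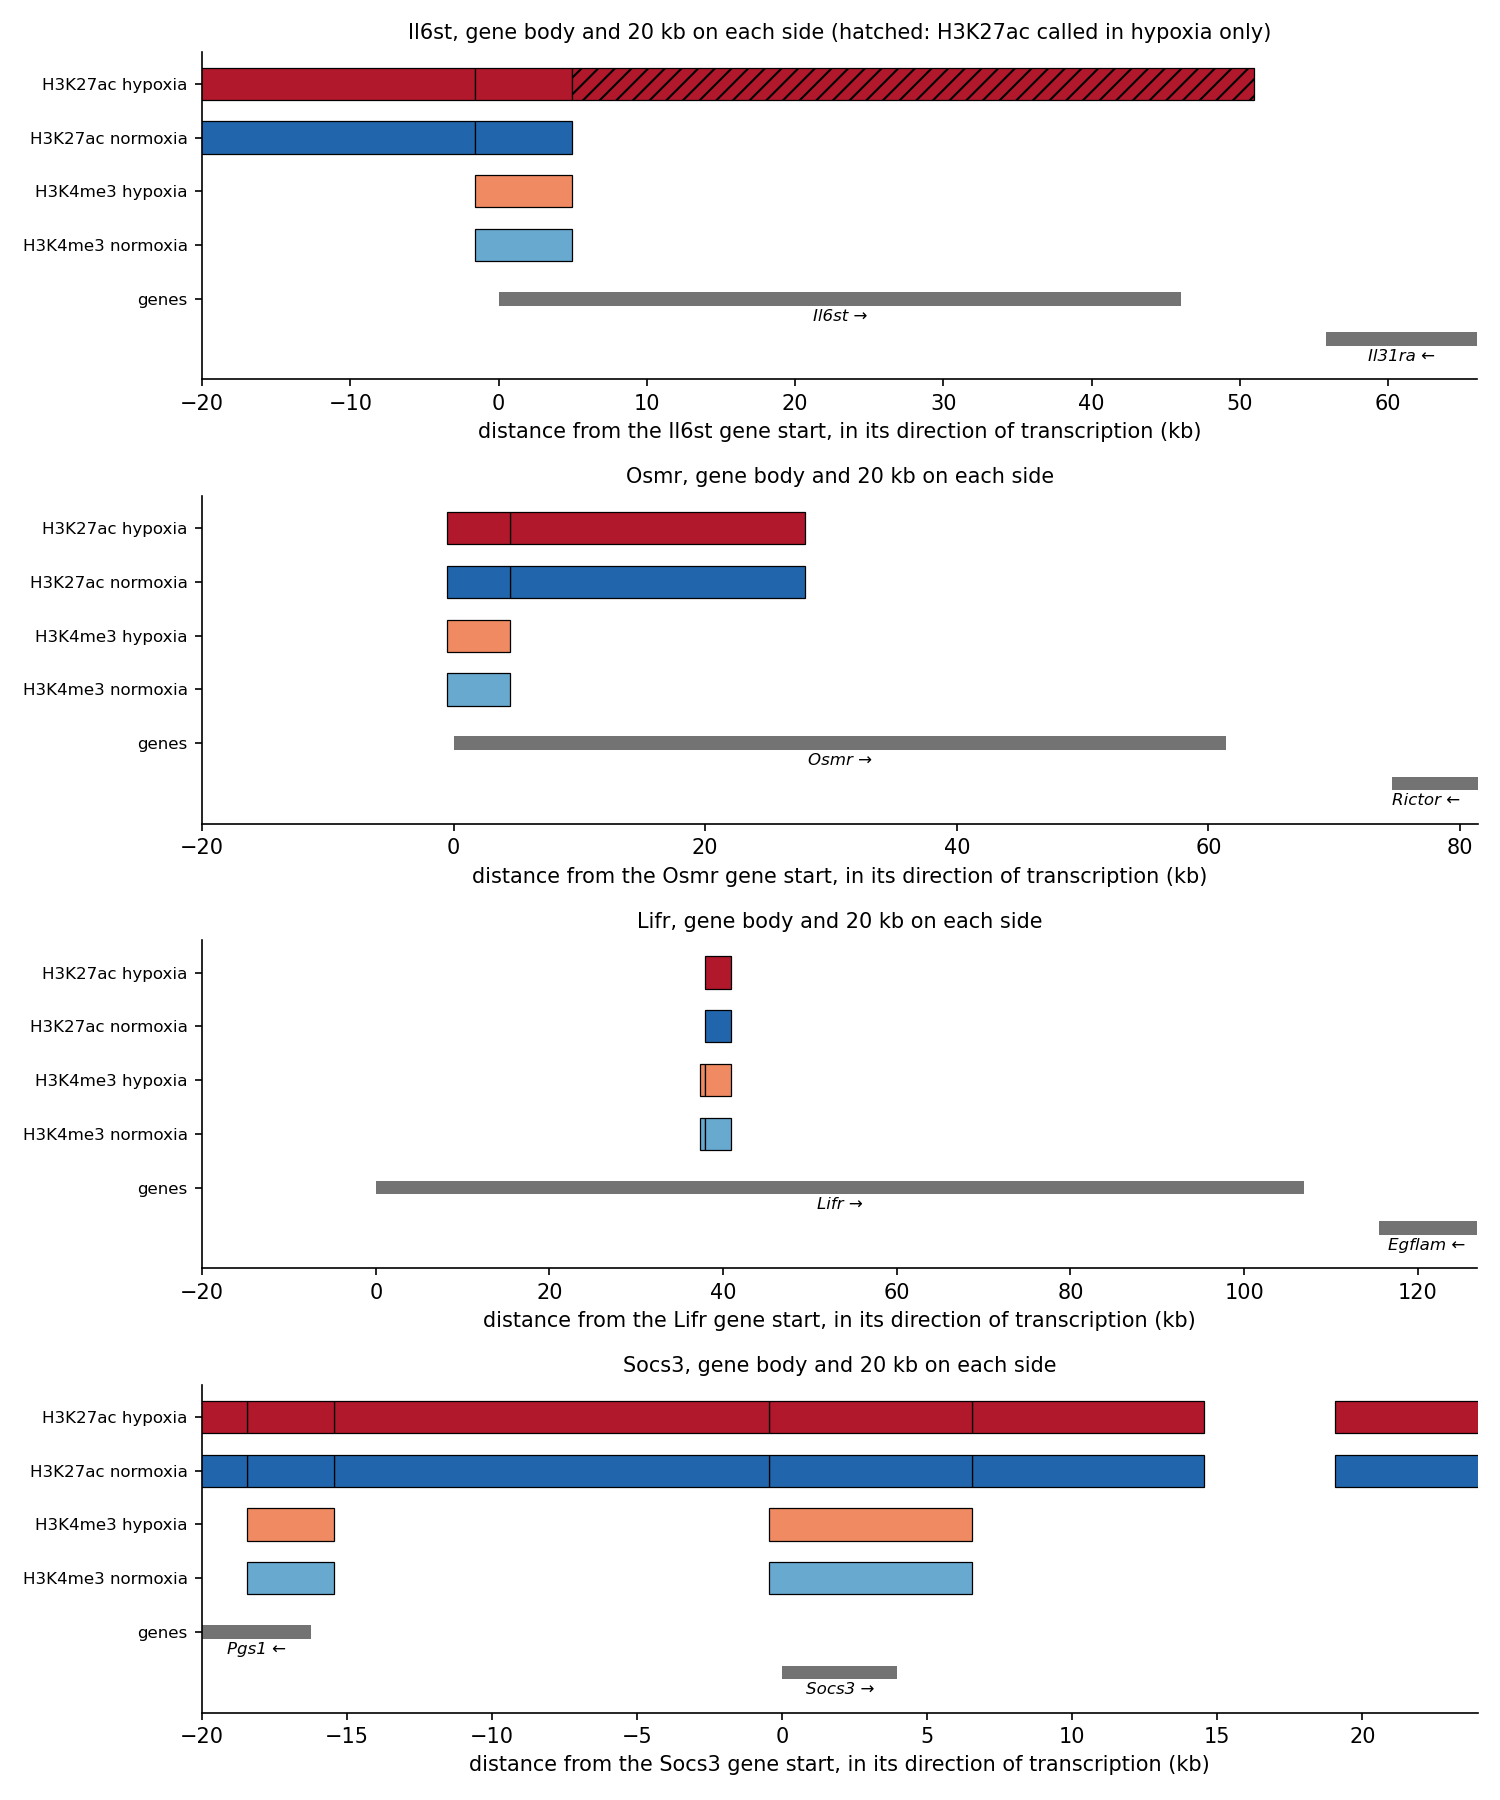
Called intervals at Il6st, Osmr, Lifr and Socs3, drawn along each gene's own direction with the distance from its gene start in kb on the horizontal axis, and with a row for each of the 4 lists above the gene bodies (grey). Edges inside a bar are borders between touching intervals, and hatching marks the H3K27ac interval called in hypoxia only, which runs from 4.93 to 50.9 kb at Il6st and has no counterpart at the other 3 genes.

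At the genes of the partner chains, the same H3K27ac intervals were called at both levels. Osmr (chr15:6813577-6874969, minus strand, 61.4 kb) had a 5 kb promoter interval scored 127 in both H3K27ac lists and 1000 in both H3K4me3 lists. A second interval, chr15:6847001-6870500, carried acetylation alone over 23.5 kb of the first part of the gene and scored 113 at both levels. The mark thus covered 45.6% of the Osmr body in each list, and no further interval lay in the window.

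Lifr (chr15:7090614-7197489, plus strand, 107 kb) had H3K27ac over 2.81% and H3K4me3 over 3.27% of its body at both levels. Both marks sat at chr15:7128501-7131500, with H3K27ac scored 66 and H3K4me3 scored 1000 in hypoxia and normoxia alike. A 0.5 kb interval of H3K4me3 alone (score 56) touched it. This place is 37.9 to 40.9 kb into the gene record, where the first transcript of the basic annotation starts (38.9 kb in). The 5' end of the record itself had neither mark, nor had the 3 starts further in, at 49.9, 49.9 and 63.7 kb. Counted at the gene start, 6 of 7 members had H3K4me3 at each level, against 56.6% of all protein-coding genes, and Lifr was the one without. Counted at any annotated start, all 7 had it.

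Stat3, Stat5a and Stat5b lie side by side on chromosome 11 in the order Stat5b, Stat5a, Stat3, and the bodies of Stat5a and Stat3 meet end to end with a short overlap. Stat3 (chr11:100885098-100939540, minus strand, 54.4 kb) encodes the main STAT that acts below gp130. The wide hypoxia-only interval, chr11:100884001-100925000, covered 39.9 kb of it, or 73.3%, and held exons 2 to 24 of 24 of the principal transcript. It started 14.5 kb after the Stat3 start and ended 1.1 kb past the gene, so it also took in 1.17 kb of the last exon of Stat5a, all of it UTR. At 41 kb it was the second widest of the 589 hypoxia-only intervals (rank 128 of 15203).

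The call over Stat3 stood close to the lower limit of the list. Its score was 51, where the lowest score in the list is 50, and 0.724% of the hypoxia intervals scored lower. Among the hypoxia-only intervals, 35 scored lower, 58 the same and 496 higher. Unlike the interval at Il6st it touched no other H3K27ac interval: a gap of 11 kb separated it from the Stat3 promoter interval and one of 22 kb from the interval at the Stat5a start. No H3K4me3 was called in it.

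At the Stat3 promoter the calls and scores were the same at both levels. The interval chr11:100936001-100940500 scored 138 for H3K27ac and 1000 for H3K4me3 at both levels, and all 4 annotated starts lay in it. A 1 kb interval next to it scored 76 in both lists. A 12.5 kb interval from 11 to 23.5 kb before the gene scored 138 in both. It reached into the body of Cavin1, whose nearer edge lies 17.2 kb from the Stat3 start. Over the gene body, H3K27ac covered 79.8% in hypoxia and 6.5% in normoxia, and H3K4me3 6.5% at each level.

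**Figure D2:**
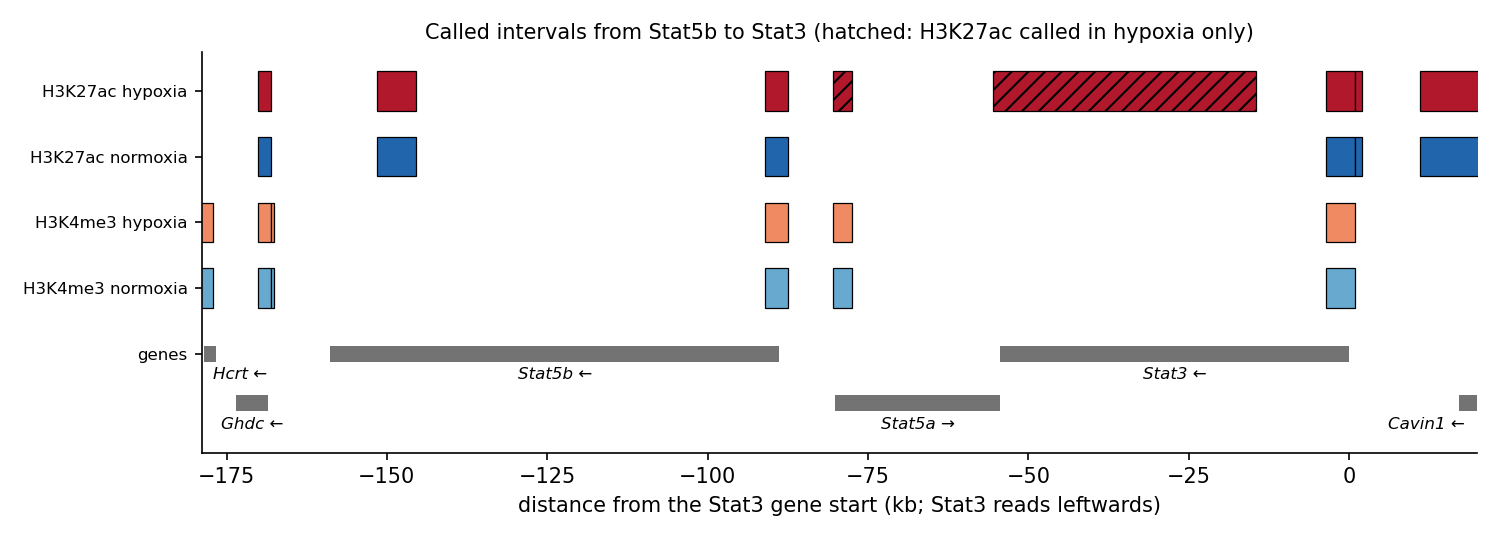
Called intervals from Stat5b to Stat3, with the distance from the Stat3 gene start in kb on the horizontal axis and the 4 lists as rows above the gene bodies (grey, arrows give the direction of transcription). The hatched H3K27ac intervals, 3 kb at the Stat5a start and 41 kb over Stat3, have no counterpart in the normoxia row, whereas the H3K4me3 rows are the same.

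Stat5a (chr11:100859351-100885169, plus strand, 25.8 kb), a mediator of prolactin and growth hormone signals, was the only member with H3K27ac at its start in hypoxia and not in normoxia. The interval chr11:100859001-100862000 was 3 kb wide, scored 62 for H3K27ac (13.9% of the hypoxia list scored lower) and 1000 for H3K4me3 at both levels. It held exons 1 to 4 of 20 of the principal transcript and all 3 annotated starts. In width it ranked 315 of 589 and was close to the median of hypoxia-only intervals, which is 3.5 kb. With the end of the Stat3 interval, H3K27ac covered 14.8% of the Stat5a body in hypoxia and 0% in normoxia, while H3K4me3 covered 10.3% at each level. Counted over the members, H3K27ac stood at the gene start of 6 of 7 in hypoxia and 5 of 7 in normoxia, against 35.8% and 35.2% of all protein-coding genes.

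Stat5b (chr11:100780731-100850724, minus strand, 70 kb), the close paralogue of Stat5a, kept its calls. Its promoter interval, chr11:100848501-100852000, scored 100 in hypoxia and 72 in normoxia for H3K27ac and 1000 in both H3K4me3 lists. The share of the list that scored lower was 43.5% in hypoxia and 26% in normoxia. An interval of 6 kb in the last part of the gene, without H3K4me3, scored 69 and 58. H3K27ac covered 11.7% of the Stat5b body at each level. The hypoxia-only interval at the Stat5a start reached into the Stat5b window, 8.28 kb before the Stat5b start, and is the reason that Stat5b is counted among the 4 members above. In the flank beyond the gene end, towards Ghdc and Hcrt, lay an interval with both marks (H3K27ac 81 in both lists) and 2 of H3K4me3 alone, scored 54 and 66 at each level.

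The paralogues are alike in sequence at an inner start of each, but not in marks. The start of Stat5a at 1.13 kb into the gene lay in the hypoxia-only interval, and that of Stat5b at 28.2 kb into the gene had no interval of any list within 1000 bp. In the 250 bases before the RefSeq starts at these places, the best ungapped stretch of 60 bases was identical at 51 bases, or 85%. It is chr11:100860412-100860471 (plus strand) at Stat5a and chr11:100822574-100822633 (minus strand) at Stat5b, and capitals mark the identical bases.
Stat5a: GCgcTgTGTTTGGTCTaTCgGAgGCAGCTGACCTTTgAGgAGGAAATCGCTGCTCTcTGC
Stat5b: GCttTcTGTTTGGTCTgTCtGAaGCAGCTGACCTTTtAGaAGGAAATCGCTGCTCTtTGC
The sequence is thus shared by a place with both marks in hypoxia and by a place with neither at either level.

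Socs3 (chr11:117966079-117970047, minus strand, 3.97 kb) lay wholly inside an interval called for both marks at both levels. Its interval, chr11:117963501-117970500, scored 147 for H3K27ac and 1000 for H3K4me3 in hypoxia and in normoxia. The 5 further H3K27ac intervals in the window, each called at both levels, lay on either side of it. On the side past the gene end, intervals of 8 and 22.5 kb scored 147 in hypoxia and 147 and 146 in normoxia. On the side before the gene start, the 15 kb interval scored 99 in hypoxia and 82 in normoxia, the 3 kb interval at the start of Pgs1 scored 138 and 122, and the 42 kb interval beyond scored 103 and 110. Within 20000 bp of the gene, 89.8% of the window lay in called H3K27ac intervals in each list.

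**Figure D3:**
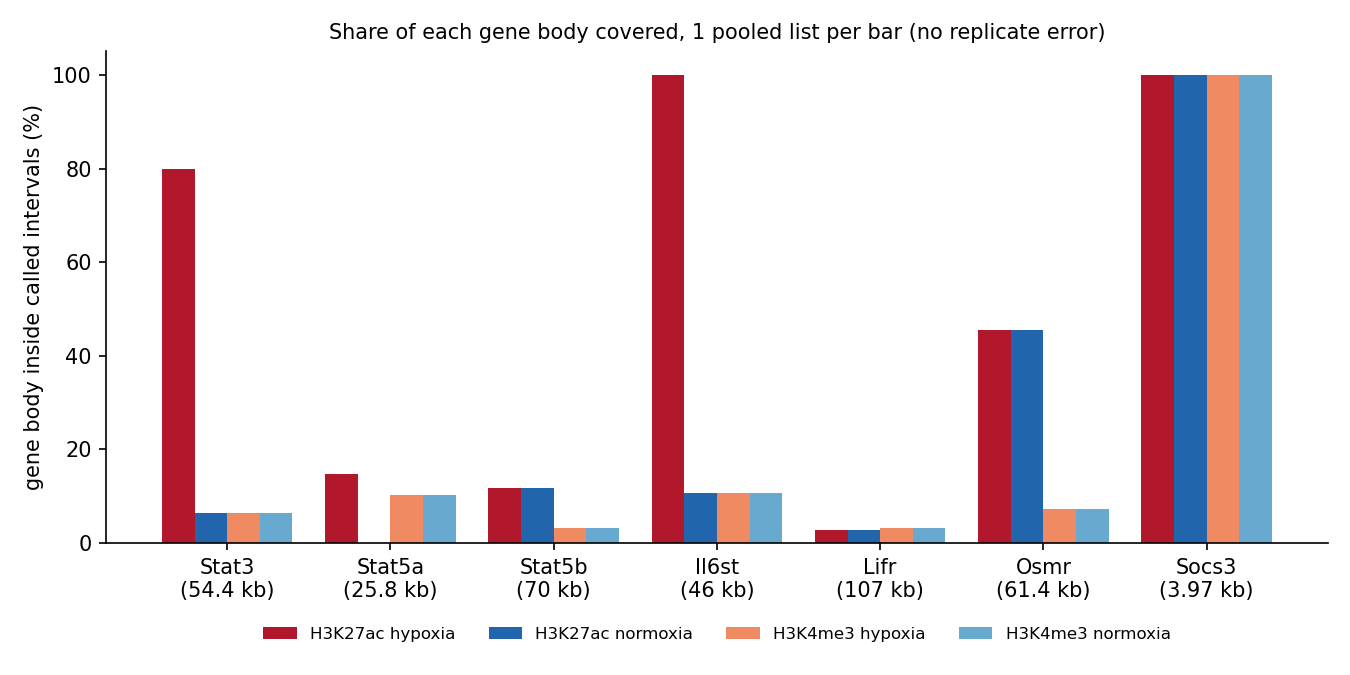
Share of each gene body (%, with the gene length under its name) inside called intervals of the 4 lists, with 1 bar for each pooled list and no error. H3K27ac covers 79.8% of Stat3 in hypoxia and 6.5% in normoxia, 100% and 10.7% of Il6st, and 14.8% and 0% of Stat5a, and the bars are level at the other 4 genes.

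Equal scores at the members are given as a description. The share of equal scores over the whole series was not counted, so nothing is read from them. Of the 17 shared H3K27ac intervals at the members, 10 had the same score in both lists. All 12 H3K4me3 intervals scored the same at both levels. None of the members had an H3K4me3 interval called at a single level, and 0.0638% of all protein-coding genes had one.

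In bases, the 5 merged windows of the members spanned 577 kb, of which H3K27ac covered 36.7% in hypoxia (212 kb) and 21.1% in normoxia (122 kb). Over the windows of all protein-coding genes the shares were 5.52% and 5.39%. Hypoxia-only intervals covered 15.6% of the member windows and 0.18% of all windows. Of the 90 kb of these intervals at the members, 41 kb is the Stat3 interval that led to the choice of genes. Nothing is therefore read from the H3K27ac shares. H3K4me3 covered 6.98% of the member windows and 2.71% of all windows at each level.

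The intervals over Stat3 and Il6st were wider than all other hypoxia-only intervals, and their scores lay within the range of that class. The wide interval over Stat3 led to the choice of genes, so its rank in width is a description. Of the 589, 11 were at least 20 kb wide (1.87%), and the third widest, at Wasf2, was 28 kb. The widest normoxia-only interval was 24 kb. Wide intervals as such were not rare, since 3.95% of all H3K27ac intervals in hypoxia and 6 of the 20 at the members were at least 20 kb, and the shared ones reached 137 kb. Scores differed by class, and not only among wide intervals. Over intervals of any width, the median in hypoxia was 115 for shared intervals and 58 for hypoxia-only ones. The shared intervals of at least 20 kb had a median score of 125 in hypoxia, and the 11 hypoxia-only ones had a median of 58 and a range of 50 to 108.

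**Figure D4:**
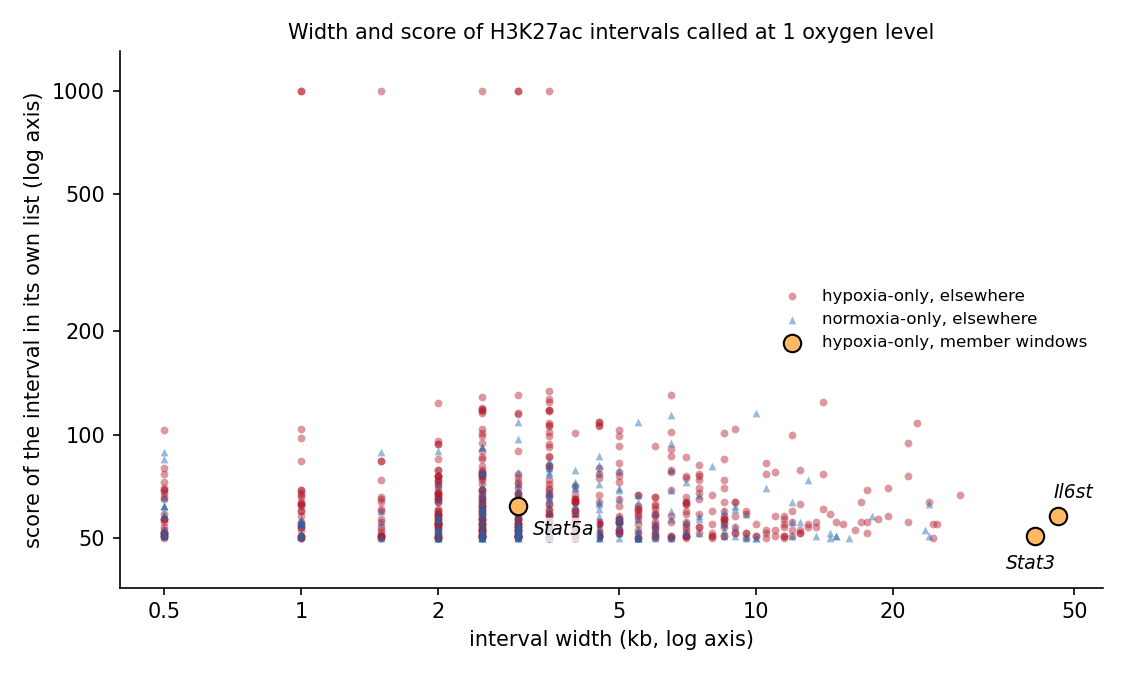
Width in kb (log axis) against the score in its own list (log axis) for each H3K27ac interval called at 1 oxygen level, in hypoxia (red circles) or in normoxia (blue triangles), with those of the member windows in orange. The intervals over Il6st (46 kb, score 58) and Stat3 (41 kb, score 51) lie to the right of all others and low on the score axis. The one at Stat5a (3 kb, score 62) lies among the rest. The wide interval over Stat3 led to the choice of these genes.

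The genes most like Stat3 and Il6st were named by the bases of gene body in hypoxia-only H3K27ac. This measure is tied to the wide interval for which Stat3 was chosen. In 470 genes with any, the median was 2.82 kb, and 3 genes had at least 30 kb: Wasf2 with 41.5 kb in 2 intervals, Il6st with 41.1 kb and Stat3 with 39.9 kb. Wasf2 encodes a protein that drives actin branching. The next were Fto with 28 kb, Rbpj with 27.5 kb, Celf1 with 24.5 kb and Adamtsl3 with 24.3 kb. As a share of the body, these 5 had from 7.89% (Fto) to 59.9% (Wasf2), beside 89.3% at Il6st and 73.3% at Stat3. A high share was also seen in a shorter gene, Cep68, with 93.6% of its 22.4 kb.

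By sequence, the interval at the Stat5a start was richer in GC than the wide ones over Stat3 and Il6st. GC content was 47.3% at Stat3, 43.4% at Il6st and 56.1% at Stat5a, with a median of 48.8% over hypoxia-only intervals and 45.9% over the 590 shared intervals of at least 20 kb. CpG pairs stood at 11.8, 13.5 and 29 per kb, against 13.3 and 11. Repeats, as masked in the genome file, made up 26.8%, 20.4% and 9.17% of the bases, against 16.6% and 19.8%. The Stat3 and Il6st intervals thus held more of them than either median. The 11 hypoxia-only intervals of at least 20 kb, which take in those over Stat3 and Il6st, had medians of 45% GC, 11.2 CpG pairs per kb and 20.4% repeats.

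TTCNNNGAA occurred 8 times in the Stat3 interval (0.195 per kb), 19 times in the Il6st interval (0.413 per kb) and 2 times in the Stat5a interval (0.667 per kb), against 0.327 per kb over all 15421 H3K27ac intervals. The 17 shared intervals of the members held 0.438 per kb, and the 3 hypoxia-only ones 0.322 per kb. The narrower form TTCCNGGAA occurred 16 times at the members, 13 of them in shared intervals (0.0686 per kb) and 3 in hypoxia-only ones (0.0333 per kb), against 0.0342 per kb over all H3K27ac intervals. The 3 and the one inside the Socs3 gene record are shown with 10 bases on each side, on the plus strand. The Socs3 site lies 53 bases before the start of the basic Socs3 transcript (117969186). That is not the RefSeq start of the Socs3 promoter printed above. The site lies after that RefSeq start in the direction of the gene, at 0.808 kb from the start of the gene record. The Stat3 sites lie in introns (chr11:100914677-100914705 and chr11:100913854-100913882, at 24.9 and 25.7 kb from the gene start), the next past the end of Il6st (chr13:112513033-112513061) and the last at Socs3 (chr11:117969229-117969257).
Stat3, at 24.9 kb: tgcatttgttTTCCTGGAAaacatctaga
Stat3, at 25.7 kb: acatagtgagTTCCAGGAAagccagaact
Il6st, past the end: tctgtcatttTTCCTGGAActccttttta
Socs3: cgccccccgaTTCCTGGAActgcccggcc
The site at Socs3 lay under both marks at both levels, and the other 3 lay in acetylation called in hypoxia only. Binding of STAT proteins was not measured.

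Around the members, a wider set of 75 genes of the route was read in the same way. Of these, 52 (69.3%) had H3K4me3 and 49 (65.3%) had H3K27ac at the gene start, the same numbers at both levels. The shares over all protein-coding genes were 56.6% for H3K4me3, and 35.8% in hypoxia and 35.2% in normoxia for H3K27ac. A hypoxia-only H3K27ac interval lay in the window of 7, a normoxia-only one in the window of 2, and none had a hypoxia-only interval in its body. The 7 in 75 (9.33%) stand beside 4.7% of all protein-coding genes, the 2 in 75 (2.67%) beside 1.15%, and the 0 in the body beside 2.14%.

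By role, Clcf1 was among the ligand genes with a hypoxia-only interval nearby (score 51). Of the 22 other receptor genes, only Il31ra did, and the interval was the one over its neighbour Il6st. The 5 kinase genes and the 4 other STAT genes had none of either kind. Of the 18 other brake genes, Socs5 (score 51) and Pias4 (score 80) had a hypoxia-only interval, and Ptpn2, which encodes a phosphatase of JAK and STAT proteins, a normoxia-only one (score 54). Of the 16 target genes, Pim1 (score 57) and Junb (score 51) had a hypoxia-only interval, and Hif1a, the gene of the oxygen-regulated transcription factor HIF-1α, a normoxia-only one of 2 kb in its body, scored 90.

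The window limit of 20000 bp left intervals just inside and just outside. The hypoxia-only interval at the Stat5a start was inside the Stat5b window at 8.28 kb and outside the Stat3 window at 23.1 kb, and the interval over Stat3 was outside the Stat5b window at 33.3 kb. A shared interval with both marks lay 23.5 kb on the other side of Stat3. At Il6st the nearest interval left out was a shared one at 36.6 kb, and at Socs3 it was a shared one at 38.6 kb. Around Osmr and Lifr the nearest were 104 kb and 200 kb away.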

How the data were processed

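Per the labels, 12 ChIP-seq libraries were made from sorted MSCs. According to the methods and the submitters' processing notes, the authors used bowtie2 for mapping to mm10, Picard for duplicate removal and chromstaR, in its differential mode, to call intervals in hypoxia against normoxia. The authors deposited 1 list per mark and oxygen level, pooling the 2 libraries of a group, with a score per interval whose definition is not given in the sources used here. No list gives depth or values per library, and the input libraries were not analysed here. From these lists, Python 3.11.15 took intervals within each gene body and 20000 bp on each side (GENCODE M21 basic, GRCm38). An interval counted as specific to hypoxia or normoxia if no interval of that mark overlapped it at the other level. A start was marked when an interval lay within 1000 bp. The principal transcript in the annotation (the longest, if several) gave the exons. Counting was tested on simulated lists. The members, gene lists and limits were chosen with earlier results of these data known. The text names the members, genes sharing bases with or next to their intervals, the 5 other genes with most body bases in hypoxia-only H3K27ac, and listed genes with an interval called at 1 level in the window, some of which are not reported here. Wasf2 as the third widest, Cep68, Csf1r, Epor, Kdr, Thy1, Cd79a and the starts of the sort markers were named after their values were seen. Alternatives were the flank, the start distance, the score limit, joining, the motif and the gene set.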

Additional observations from a re-analysis of the deposited data

How the results depend on the processing

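Of 25 alternatives computed, 20 kept their value within the limits set and 5 moved, with 0 reversed. The count of 4 members with a hypoxia-only H3K27ac interval was 3 with gene bodies alone and 4 with 50000 bp on each side. It was 3 when intervals closer than 1000 bp to one of the other list were left out, since the one at Il6st touches a shared interval. It fell to 0 both without the 25% of the hypoxia list with the lowest scores and without that part of either list, because the scores of 51, 58 and 62 are under the lowest score kept, 73. The 90 kb by which H3K27ac in hypoxia exceeded normoxia in the windows became 84.7 kb with gene bodies alone and 0 kb without the lowest-scoring 25% of both lists. Every difference in H3K27ac calls at the members thus rests on intervals in the lowest-scoring 25% of the hypoxia list. This is not particular to the members, as the median score of all hypoxia-only intervals, 58, was also under 73. Joined with intervals within 1000 bp, the interval over Il6st was 77 kb in place of 46 kb, and that over Stat3 stayed at 41 kb. The share of genes with a hypoxia-only interval in the window was 4.7% of protein-coding and 2.8% of all annotated genes. No paired analysis was possible because each list pools both libraries of its group, and for the same reason no library could be left out.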
